A study of Rattus norvegicus with 29 samples.

Results

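The miR-15 and miR-16 family in rat plasma comprised 10 of the 754 mature microRNAs (miRNAs) counted, namely both arms of miR-15a, miR-15b, miR-16, miR-195 and miR-497. A miRNA was taken as a member when its name, without the rat prefix, had exactly 1 of these 5 stems, and both the 5p arm and the 3p arm of each hairpin were kept. They include rno-miR-16-5p, the most abundant member, and rno-miR-15b-5p from the neighbouring hairpin. The rat prefix is left out below. Plasma came from 29 adult male Sprague-Dawley rats, sampled from the tail vein under isoflurane 48 h after surgery at the University of Eastern Finland (UEF), Monash University or UCLA. The injury was a severe lateral fluid-percussion traumatic brain injury (TBI), delivered under isoflurane. Sham rats were operated on but not injured. Injured rats with epilepsy on video-EEG in the seventh month were called TBI+ and those without it TBI-. The groups were 10 sham, 10 TBI- and 9 TBI+ rats, of which UEF contributed 12, UCLA 9 and Monash 8. Each value is from the plasma of 1 rat, in which release from blood cells and release from solid tissue are measured together.

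A miRNA guides the silencing complex to messenger RNAs that pair with its seed, bases 2 to 8 from the 5′ end. The family is known for repressing BCL2, which blocks apoptosis, and several cyclins that drive cells through the cell cycle. miR-16 is plentiful in blood cells, miR-451 and miR-486 are typical of red cells, and miR-122 is typical of hepatocytes. In human and mouse, miR-15a and miR-15b each lie beside a copy of miR-16, so that reads of mature miR-16-5p cannot be assigned to 1 copy.

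The 5p sequences are shown because they define the family: the seed, in capitals, is the same in all 4 members with an entry. They were taken from RefSeq on the rat build GRCr8, whereas the reads had been aligned to Rnor_6.0.
miR-16-5p: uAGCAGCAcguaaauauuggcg
miR-15b-5p: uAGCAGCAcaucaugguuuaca
miR-195-5p: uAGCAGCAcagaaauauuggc
miR-497-5p: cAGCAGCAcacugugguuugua
Outside the seed the 5p members diverge. miR-16-5p and miR-195-5p matched at 19 of 21 aligned positions, miR-16-5p and miR-15b-5p at 14 of 22, and miR-15b-5p and miR-497-5p at 16 of 22. miR-15a-5p and miR-15a-3p are named only, and 8 of the 10 members had an entry. Among the 693 mature miRNAs of the reference, 5 carried the seed of miR-16-5p.

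The fifth was miR-322-5p, which is shown with miR-503-5p because the latter, a relative from the same extended family, differs at the last seed base.
miR-322-5p: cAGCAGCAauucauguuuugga
miR-503-5p: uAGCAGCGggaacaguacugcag
The 3p arms of the members are shown for contrast, since their seeds (capitals) were not shared.
miR-16-3p: aCCAAUAUuauugugcugcuu
miR-15b-3p: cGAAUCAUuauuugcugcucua
miR-195-3p: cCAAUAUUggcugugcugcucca
miR-497-3p: cCAAACCAcacugugguguuaga
On GRCr8, Mir15b (chr2:155555178-155555275) and Mir16 (chr2:155555327-155555421) were 51 bases apart within the bounds of the gene Smc4 (chr2:155550262-155578695). Mir497 (chr10:55450171-55450239) and Mir195 (chr10:55450495-55450581) were 255 bases apart.

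The plasmas held 1162307 to 5223469 miRNA counts (median 2713557). UEF sham rat 3 stood apart: it had the highest total, 55.1% of its counts came from miR-122-5p, and its scaling factor by trimmed means (TMM) was 0.333, so its levels, given as CPM (counts scaled to a common library size with the TMM factors), are high relative to its plain shares of counts. TBI estimates without this rat are given below for miR-15a-3p, miR-16-5p at UEF, miR-195-5p, miR-195-3p, miR-497-5p and the family share. For the markers they are not given. Among 34 pairs of rats of the same site and outcome, 0 agreed within sampling noise. Red-cell markers (miR-451-5p, miR-486 and both arms of miR-144) were present in all groups, with summed medians of 69009 CPM in sham rats (44901 to 162382) and 144805 CPM in TBI rats (81847 to 271925).

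miR-16-5p made up nearly all of the family. It ranked 1 of 754 by summed count, with a mean of 16.8% of all counts, and contributed 98.0% to 99.5% of the family's counts in every rat. Next came miR-195-5p at rank 106, miR-15b-5p at 109, miR-16-3p at 117 and miR-15a-5p at 160. The lower levels belonged to miR-15b-3p at rank 194, miR-497-5p at 212, miR-195-3p at 276, miR-497-3p at 528 and miR-15a-3p at 706. These counts were not scaled by length. The paper lists library amplification bias among the factors that can affect small RNA profiles, so the ranks and shares are those of counts. Median counts per rat fell from 411208 for miR-16-5p to 35 for miR-497-3p and 21 for miR-15a-3p. miR-15a-3p was at 0 in 2 rats, UEF sham 2 and UEF sham 3, and had 10 or more counts in 24 rats, so its ratios are the least precise of the family.

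Spread between rats differed among members. The standard deviation (SD) of log2 CPM over 29 rats was 0.51 for miR-15a-5p, 0.59 for miR-16-5p, 0.71 for miR-15b-5p, 0.75 for miR-497-5p and 0.76 for miR-195-5p, against a median of 0.63 over the 751 miRNAs that passed the count filter. miR-15a-3p had the highest SD, 1.01. All 10 members passed the filter.

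**Figure D1:**
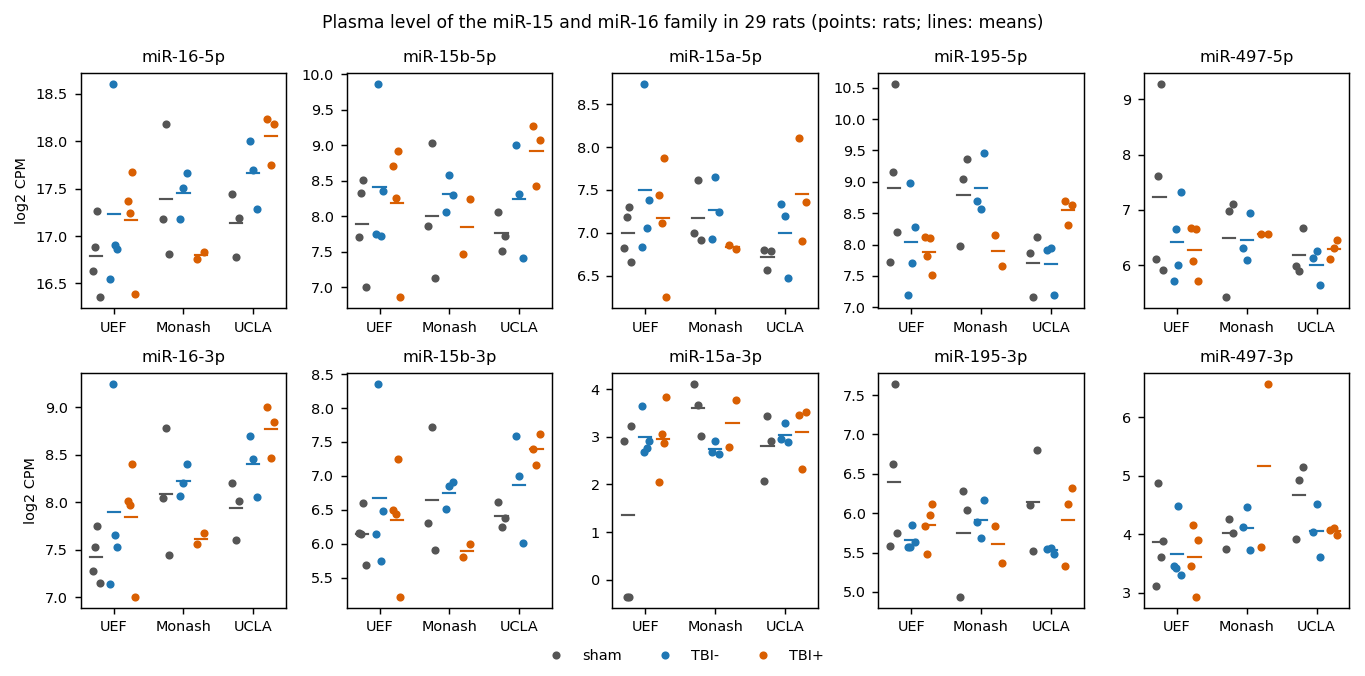
Level of each of the 10 members in every rat, as log2 CPM (y axis, a separate log scale in each panel) by site (x axis). Points are rats, coloured by outcome, and lines are group means. The UEF sham rat with 1510 CPM of miR-195-5p and 621 CPM of miR-497-5p and the UEF TBI- rat with 398112 CPM of miR-16-5p lie far above the rest of their groups.

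The first comparison asked whether the family differed between injured and sham rats. miR-16-5p, the main plasma member, had a lowest, median and highest level of 83787, 134839 and 297219 CPM in sham rats. In TBI rats the levels were 85816, 169066 and 398112 CPM. The groups overlapped over most of their range, and the highest values were those of Monash sham 2 and UEF TBI- 2. With site in the model, the log2 fold change of miR-16-5p was 0.35 (95% interval -0.12 to 0.81, adjusted p = 0.648, edgeR quasi-likelihood test). The interval covers both a slight decrease and an increase of 0.81.

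miR-15b-5p, which has the same seed, ran from 127 through a median of 221 to 522 CPM in sham rats. In TBI rats it ran from 115 through 317 to 929 CPM. Again the ranges overlapped, with the same TBI- rat highest. Its log2 fold change was 0.48 (-0.10 to 1.06, adjusted p = 0.593, edgeR). The other members of the miR-15a, miR-15b and miR-16 hairpins had estimates between 0.21 for miR-15a-3p and 0.38 for miR-16-3p, and their intervals included 0. Without UEF sham 3 the estimate of miR-15a-3p was 0.05 (adjusted p = 0.990, edgeR).

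The miR-195 and miR-497 hairpins had estimates below 0. miR-195-5p, a member studied for its part in the exit of heart muscle cells from the cell cycle, ran from 142 through 285 to 1510 CPM in sham rats and from 145 through 276 to 699.5 CPM in TBI rats. miR-497-5p ran from 41.9 through 85.0 to 621 CPM in sham rats and from 48.8 through 78.2 to 159.7 CPM in TBI rats. For both, the medians lay close together and UEF sham 3 was far above the other rats. The log2 fold changes were -0.53 for miR-195-5p (-1.14 to 0.08, adjusted p = 0.563), -0.53 for miR-195-3p (-0.95 to -0.12, adjusted p = 0.245), -0.70 for miR-497-5p (-1.30 to -0.10, adjusted p = 0.293) and -0.10 for miR-497-3p (-0.70 to 0.50, adjusted p = 0.940). Without UEF sham 3 they were -0.12 for miR-195-5p, -0.27 for miR-195-3p and -0.17 for miR-497-5p, with adjusted p of 0.984, 0.739 and 0.925 (edgeR).

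After adjustment over 751 miRNAs, 0 of 10 members passed in TBI against sham (edgeR), where 1.2% of all miRNAs did. At an unadjusted p under 0.05 there were 2 members, miR-195-3p and miR-497-5p, and 83 of all 751 miRNAs. DESeq2 also called 0 members, and 24 miRNAs in all. The median log2 fold change was 0.28 over the members and 0.03 over all miRNAs tested.

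**Figure D2:**
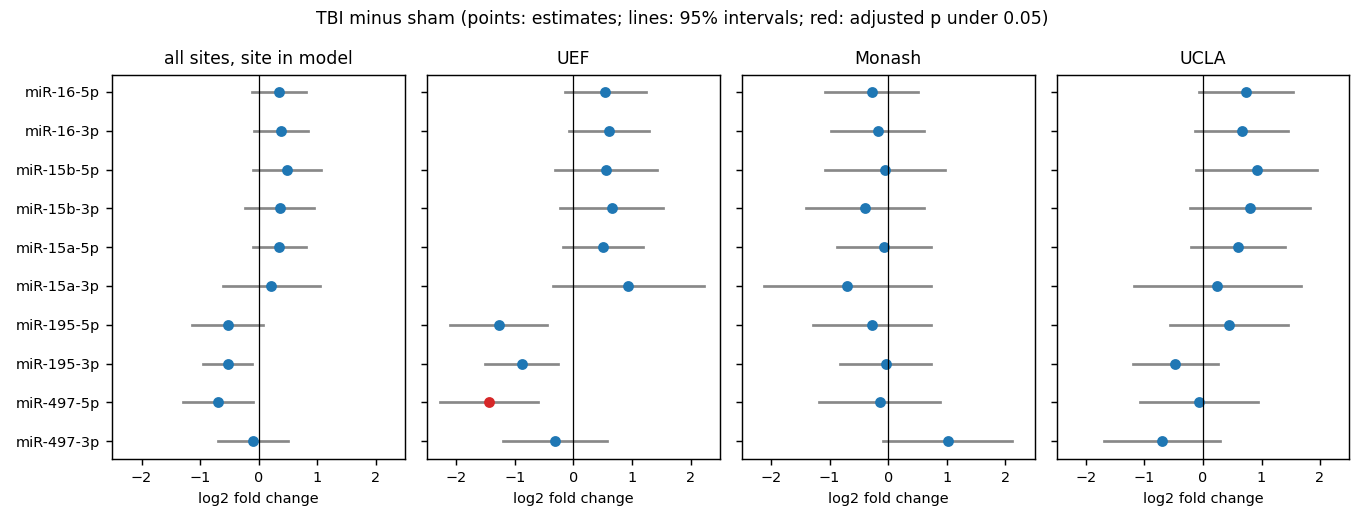
Log2 fold change of TBI over sham (x axis, 0 marked) for each member (y axis), over all sites with site in the model and within each site. Points are edgeR estimates, lines are 95% intervals, and red marks an adjusted p under 0.05. Estimates of the upper 6 members lie right of 0 at UEF and UCLA and left of 0 at Monash, and the only red point is miR-497-5p at UEF, at -1.45.

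The red-cell markers also had estimates above 0 in this contrast without passing the adjusted test (edgeR), led by miR-486 with a log2 fold change of 0.77 (adjusted p = 0.0800). The log2 fold change of miR-451-5p was 0.66 over all sites (adjusted p = 0.551), with site estimates of 1.24 (UEF), -0.53 (Monash) and 1.21 (UCLA). Of the 4 markers, 1 passed at UEF, miR-486, with a log2 fold change of 1.34 (adjusted p = 0.00774, edgeR). The log2 ratio of miR-451-5p to miR-23a-3p in the counts, used here as a hemolysis index, averaged -2.15 in TBI and -2.86 in sham rats. By qPCR of miR-23a and miR-451, the study itself reported no hemolysis in any plasma sent for sequencing. Its absorbance measure was slightly above the acceptance limit in a small number of them. Once the count index entered the model as a covariate, miR-16-5p and miR-15b-5p both had an estimate of -0.09. The part of red-cell RNA in the TBI estimates was not tested. Of the 4 white-cell and platelet markers (miR-142-3p, miR-142-5p, miR-150-5p and miR-223-3p), miR-223-3p had the highest estimate in TBI against sham, 0.51 (adjusted p = 0.365, edgeR), and the median of the 4 was 0.25.

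Within sites, the direction of the miR-16-5p estimate varied. At UEF it was 101813, 121271, 157283 and 83787 CPM in sham rats 1 to 4, and from 85816 through a median of 138762 to 398112 CPM in the 8 TBI rats. At Monash the 3 sham rats had 115256 to 297219 CPM and the 5 TBI rats 110906 to 207402 CPM. At UCLA the 3 sham rats had 112162 to 177701 CPM and the 6 TBI rats 159692 to 308202 CPM. Sham and TBI rats overlapped at every site, at UCLA in a single TBI- rat below the highest sham rat. The log2 fold changes were 0.55 at UEF (-0.14 to 1.23), -0.28 at Monash (-1.08 to 0.52) and 0.73 at UCLA (-0.07 to 1.53). Without UEF sham 3 the estimate at UEF was 0.73 (adjusted p = 0.487, edgeR). The test of a difference between sites did not pass (edgeR, adjusted p = 0.470).

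miR-497-5p passed the test at UEF, where it was lower in TBI, and its value rested on a single sham rat. The sham rats 1 to 4 at UEF had 68.5, 196, 621 and 59.2 CPM, and the 8 TBI rats had 51.7 to 159.7 CPM with a median of 82.7 CPM. Sham rats 2 and 3 were above all TBI rats of that site, and sham rats 1 and 4 were among the lower ones. As a plain share of counts, UEF sham 3 was also the highest of the site, with 0.0207% against 0.0144% in the highest TBI rat. The log2 fold change was -1.45 (-2.28 to -0.61, adjusted p = 0.0412, edgeR), and -0.29 without UEF sham 3 (adjusted p = 0.939). The call was lost without any of 16 of the 29 rats in turn, the fold being smallest in size without UEF sham 3 and -1.40 to -1.29 in the others. It was also lost with the hemolysis ratio in the model (-1.34, adjusted p = 0.237) and with a count filter set by outcome alone (-1.29, adjusted p = 0.0532), which was the form run first. With plain library totals in place of TMM factors the log2 fold change was -0.50 (adjusted p = 0.407), while the median of all 751 miRNAs moved from 0.01 to 0.43.

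Its neighbour miR-195-5p showed the same rats high at UEF, with 209.8, 569, 1510 and 293 CPM in sham rats 1 to 4 and 145 to 507 CPM in TBI rats. Its log2 fold change there was -1.28 (-2.10 to -0.45, adjusted p = 0.0714, edgeR), and -0.40 without UEF sham 3 (adjusted p = 0.910). It passed in 5 alternatives, among them DESeq2 (-1.35, adjusted p = 0.0228) and at least 100 counts in every rat (-0.99, edgeR, adjusted p = 0.00883). The rest were without UEF sham 1, UEF sham 4 or UEF TBI- 2 (edgeR, adjusted p from 0.0150 to 0.0354). In 35 other alternatives it did not pass. miR-195-3p, with 47.1, 98.1, 199 and 53.0 CPM in sham rats 1 to 4, had -0.88 (edgeR, adjusted p = 0.107) and -0.24 without UEF sham 3 (adjusted p = 0.939). It passed by DESeq2 and without UEF sham 1 or UEF sham 4, and did not pass in 36 other alternatives. As plain shares of counts, miR-195-3p took 0.00486%, 0.00799%, 0.00664% and 0.00622% in these sham rats and 0.00300% to 0.0121% in the TBI rats of the site, so that the sham rats lay within the TBI range. With plain library totals the estimates at UEF were -0.05 for miR-195-3p (adjusted p = 0.950) and -0.49 for miR-195-5p (adjusted p = 0.270, edgeR). In these rats the liver marker miR-122-5p took 28.1% to 55.1% of counts in sham and its log2 fold change at UEF was -2.92 (adjusted p = 0.000279, edgeR). The part of liver-derived RNA in the miR-195 and miR-497 values was not tested.

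At UEF, 1 of 10 members passed (edgeR), against 3.86% of all miRNAs. DESeq2 called 51 miRNAs in all there, of which 3 were members: miR-497-5p, miR-195-5p and miR-195-3p. At Monash 0 of 10 passed, against 0% of all miRNAs, and at UCLA 0 of 10, against 0.266%. At both sites 0 members had an unadjusted p under 0.05, against 56 of 751 miRNAs at Monash and 85 at UCLA. DESeq2 called 0 members at both, and in all 5 miRNAs at Monash and 7 at UCLA. miR-497-5p had -0.15 (-1.18 to 0.89) at Monash and -0.06 (-1.07 to 0.94) at UCLA. The difference of the TBI effect between sites passed for 0 of 10 members (edgeR, 1.07% of all miRNAs). There, 1 member had an unadjusted p under 0.05, miR-195-5p (adjusted p = 0.334), against 105 of 751 miRNAs. DESeq2 called 0 members, and 17 miRNAs in all.

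The comparison of TBI+ with TBI- rats addressed whether the family at 48 h differed with later epilepsy. None of the 10 members passed (edgeR), and 0% of all miRNAs did. Counts of members at an unadjusted p under 0.05 and by DESeq2 were also 0. Over all 751 miRNAs these counts were 18 and 0. The log2 fold changes were -0.09 for miR-16-5p (-0.63 to 0.45), -0.01 for miR-15b-5p (-0.68 to 0.65) and 0.48 for miR-497-3p (-0.22 to 1.18), the estimate farthest from 0. For miR-16-5p the interval leaves room for differences of up to 0.63 down or 0.45 up on the log2 scale. The family's share of counts averaged 18.3% in both outcomes.

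That share, which does not depend on TMM scaling, was higher in TBI than in sham rats. It was 18.3% ± 4.11 (SD, n = 19) in TBI and 14.5% ± 5.62 (SD, n = 10) in sham rats, a difference of 3.78 percentage points (two-sided permutation test, p = 0.0469). Unlike the edgeR model, this test did not account for site. Without UEF sham 3 the difference was 2.76 points (permutation p = 0.130). UEF sham rats had 10.6%, 10.0%, 5.35% and 9.93%, below every UEF TBI rat (10.9% to 25.8%). UCLA sham rats had 16.2% to 20.3%, which overlapped with 18.8% to 22.7% in TBI rats. At UEF the share differed by 7.96 points (exact permutation p = 0.0222, adjusted p = 0.0536 over 3 sites), and by 6.75 points without UEF sham 3 (exact p = 0.0364, adjusted p = 0.0545). At UCLA it differed by 2.75 points (exact p = 0.0357, adjusted p = 0.0536), and at Monash by -1.06 points (exact p = 0.696).

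The denominator moved with the groups. With miR-122-5p taken out of the counts, the share was 19.3% in TBI and 17.6% in sham rats, a difference of 1.73 points (permutation p = 0.229). At UEF the difference then was 3.65 points (exact permutation p = 0.133) and at UCLA 2.64 points (exact p = 0.0357, adjusted p = 0.107). Leaving out any of 15 of the 29 rats in turn also ended the call on the whole share, with p from 0.0505 to 0.130.

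**Figure D3:**
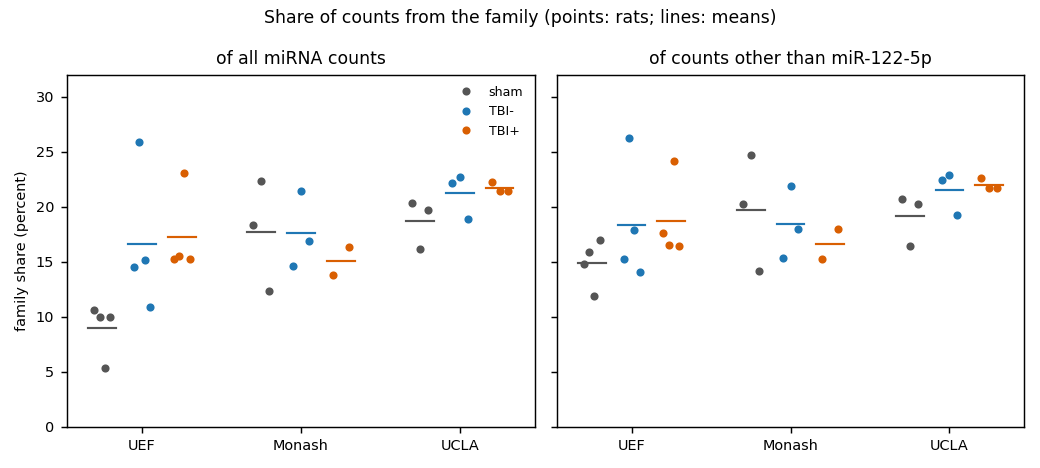
Share of counts from the 10 members in percent (y axis, from 0) by site (x axis), of all miRNA counts on the left and of the counts without miR-122-5p on the right. Points are rats and lines are group means. The 4 UEF sham rats, at 5.35% to 10.6% on the left, lie at 11.9% to 16.9% on the right.

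Sites differed in the share as well. It was 14.3% ± 5.69 (SD, n = 12) at UEF, 17.0% ± 3.54 (SD, n = 8) at Monash and 20.6% ± 2.09 (SD, n = 9) at UCLA. UEF was below UCLA by 6.27 points (exact permutation test, adjusted p = 0.0194 over 3 site pairs) and Monash below UCLA by 3.55 points (exact, adjusted p = 0.0362). The second call was lost in 10 of 17 omissions of a single rat and by medians (-4.87 points, exact permutation test, adjusted p = 0.0789). UEF and Monash differed by -2.72 points (exact p = 0.247). Without miR-122-5p, which took 0.634% to 2.68% of counts at UCLA, UEF was below UCLA by 3.59 points (exact, adjusted p = 0.0802) and Monash below UCLA by 2.44 points (exact, adjusted p = 0.153). Site also went with the source of the rats, their diet, housing before surgery and analgesic, and with antibiotic chow at UCLA alone. These and the handling of samples at each site cannot be told apart.

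Levels of single members between sites did not pass the adjusted test (edgeR). Of the 10 members, 0 were called over the 3 sites together, against 14.8% of all miRNAs. The count was also 0 for UEF against Monash (9.99% of all miRNAs), UEF against UCLA (9.32%) and Monash against UCLA (5.46%). At an unadjusted p under 0.05 the counts were 1 over the 3 sites, 1 for UEF against Monash, 2 for UEF against UCLA and 0 for Monash against UCLA. Over all 751 miRNAs these counts were 223, 204, 151 and 148. DESeq2 called 1 member for UEF against Monash, miR-497-3p, of 109 miRNAs in all, and 0 members in the other 3. There it called 155 miRNAs over the 3 sites, 81 for UEF against UCLA and 59 for Monash against UCLA. Median levels of miR-16-5p rose in the order UEF (122089 CPM), Monash (148421 CPM) and UCLA (212313 CPM), and no neighbours in this order passed the test. The UEF minus UCLA log2 difference was -0.47 for miR-16-5p (-0.98 to 0.03, adjusted p = 0.290) and -0.56 for miR-16-3p (-1.06 to -0.07, adjusted p = 0.177). Without UEF TBI- 2, the rat with the highest miR-16-5p, these were -0.69 (adjusted p = 0.0211) and -0.78 (adjusted p = 0.00798), both past the threshold.

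Among the relatives outside the family rule, miR-503-5p was lower at UEF than at UCLA by a log2 difference of -1.68 (edgeR, adjusted p = 1.75e-06) and at Monash than at UCLA by -1.42 (adjusted p = 0.000454). miR-322-5p was not called in any comparison. In TBI against sham neither passed, with log2 fold changes of -0.24 for miR-322-5p and 0.08 for miR-503-5p. The difference between relatives and members was not tested.

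Ratios within a rat set miR-16-5p and miR-15b-5p, whose hairpins are neighbours on chromosome 2, against each other without TMM scaling. If the rat has another copy of miR-16, as human and mouse do, miR-16-5p counts need not come from that locus alone. The log2 ratio of miR-16-5p to miR-15b-5p was 8.90 ± 0.32 (SD, n = 12) at UEF, 9.19 ± 0.32 (SD, n = 8) at Monash and 9.31 ± 0.28 (SD, n = 9) at UCLA. UEF was below UCLA by a log2 difference of -0.41 (exact permutation test, adjusted p = 0.0211). This call was lost without UCLA TBI- 3, where the difference was -0.34 (exact, adjusted p = 0.0523). The differences of UEF and Monash (-0.28, exact, adjusted p = 0.103) and of Monash and UCLA (-0.12, exact, adjusted p = 0.414) did not pass. In TBI and sham rats the ratio was 9.06 and 9.19 (permutation p = 0.359).

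The 2 arms of a hairpin are released from the same precursor, and usually the 5p arm of this family is kept. The log2 ratio of 5p to 3p was 1.78 at UEF and 1.42 at UCLA for miR-15b (difference 0.35, exact permutation test, adjusted p = 0.0414 over 15 tests). For miR-16 it was 9.34 at UEF and 9.25 at UCLA (difference 0.10, exact, adjusted p = 0.0414). For each hairpin the call was lost without any of 13 of the 21 rats in turn. The other 13 site comparisons of arm ratios did not pass, the nearest being miR-497 between UEF and UCLA (1.05, exact, adjusted p = 0.0580) and miR-195 between Monash and UCLA (0.72, exact, adjusted p = 0.0580). In TBI against sham 0 of 5 arm ratios passed, with adjusted p of 0.843 or higher (permutation tests), and 0 of these had an unadjusted p under 0.05.

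**Figure D4:**
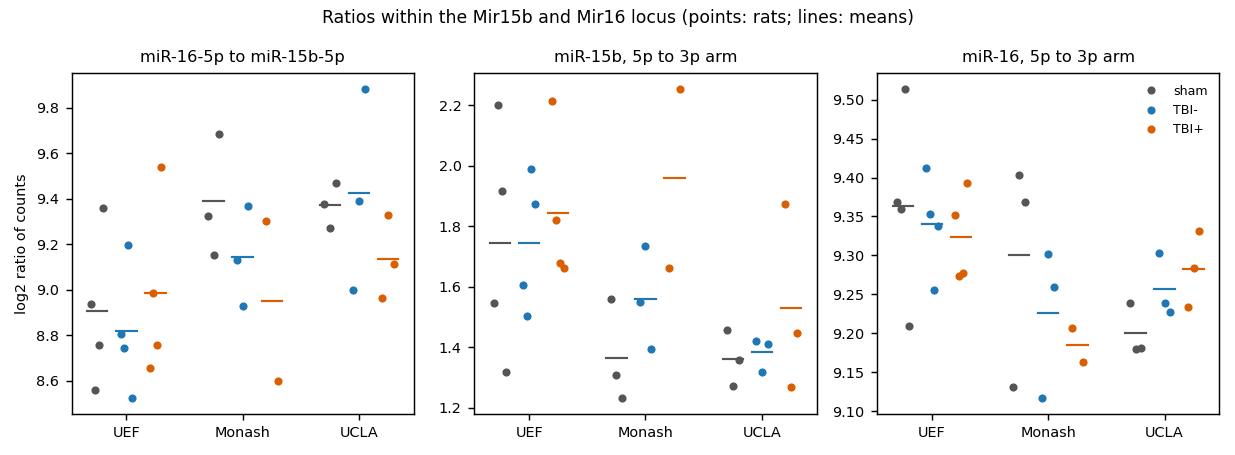
Log2 ratios of counts (y axes, log scale with a separate range in each panel) by site (x axis): miR-16-5p to miR-15b-5p, and the 5p to the 3p arm of miR-15b and of miR-16. Points are rats and lines are group means. UEF rats lie lower than UCLA rats in the first panel (means 8.90 and 9.31) and higher in the other panels (1.78 and 1.42, then 9.34 and 9.25), with overlap between the sites in each.

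Across rats, levels of some members moved together. The log2 levels of miR-16-5p and miR-16-3p had Pearson r = 0.987 and Spearman rho = 0.967 over 29 rats, and those of miR-16-5p and miR-15b-5p had r = 0.875 and rho = 0.839. The miR-195-5p and miR-497-5p pair of chromosome 10 had r = 0.814 and rho = 0.730, with r = 0.688 without the 2 rats farthest out. Within sites this pair had r = 0.927 at UEF, 0.643 at Monash and 0.678 at UCLA. Across the clusters, miR-16-5p had r = 0.360 (rho = 0.408) with miR-195-5p and r = 0.110 (rho = 0.250) with miR-497-5p, although miR-16-5p and miR-195-5p are the members closest in sequence. By rho, miR-15b-5p passed with miR-195-5p (0.474, adjusted permutation p = 0.0274) and with miR-497-5p (0.434, adjusted p = 0.0452). miR-15b-3p passed with miR-195-5p (rho = 0.432, adjusted permutation p = 0.0452). None of these passed by r, and the other pairs between chromosomes 2 and 10 passed by neither. Within UEF, Monash and UCLA, r for miR-16-5p with miR-195-5p was 0.411, 0.475 and 0.821. The arms of miR-497 had r = -0.018 and those of miR-15a r = -0.120. Each of these pairs includes a 3p arm with few counts, with medians of 35 for miR-497-3p and 21 for miR-15a-3p. As miR-15a-3p was also at 0 in 2 rats, these r cannot tell whether arms of a hairpin vary together. From different hairpins, miR-15a-5p with miR-195-5p had r = 0.473 (rho = 0.576, permutation p adjusted 0.0288 for r and 0.0045 for rho). Over 45 pairs, the permutation p adjusted for r was 4.09e-05 for miR-16-5p with miR-16-3p, with miR-15b-5p and for miR-195-5p with miR-497-5p, 0.125 for miR-16-5p with miR-195-5p and 0.841 for miR-16-5p with miR-497-5p.

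Levels of the miR-15a-5p, miR-15b and miR-16 members followed the red-cell miRNA miR-451-5p. Over 29 rats r was 0.947 (rho 0.923) for miR-15b-5p, 0.921 (rho 0.865) for miR-15b-3p, 0.884 (rho 0.878) for miR-15a-5p, 0.883 (rho 0.827) for miR-16-5p and 0.844 (rho 0.764) for miR-16-3p. The permutation p was 1e-05 for each, the smallest that the permutations can give, and 2e-05 after adjustment over 10 members. How many miRNAs outside the family follow miR-451-5p as closely was not computed. Without the 2 rats farthest out in miR-451-5p, r ran from 0.790 for miR-16-3p to 0.933 for miR-15b-5p. Within UEF, Monash and UCLA, r was 0.945, 0.923 and 0.918 for miR-16-5p and 0.954, 0.892 and 0.968 for miR-15b-5p.

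For the chromosome 10 members the relation did not pass. miR-195-5p had r = 0.299 (rho = 0.361) with miR-451-5p, with permutation p of 0.193 and 0.0792 after adjustment, and within UEF, Monash and UCLA its r was 0.236, 0.329 and 0.723. miR-497-5p had r = 0.179 (rho = 0.368), miR-195-3p r = -0.041 and miR-497-3p r = -0.190. Without TMM scaling, r was -0.28 for miR-195-5p, and it passed below 0 for miR-497-5p (-0.39) and miR-195-3p (-0.41), both with an adjusted permutation p of 0.0473. The sign for the 5p members thus depended on the scaling. In all of these relations both miRNAs come from the same library and share its depth.

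**Figure D5:**
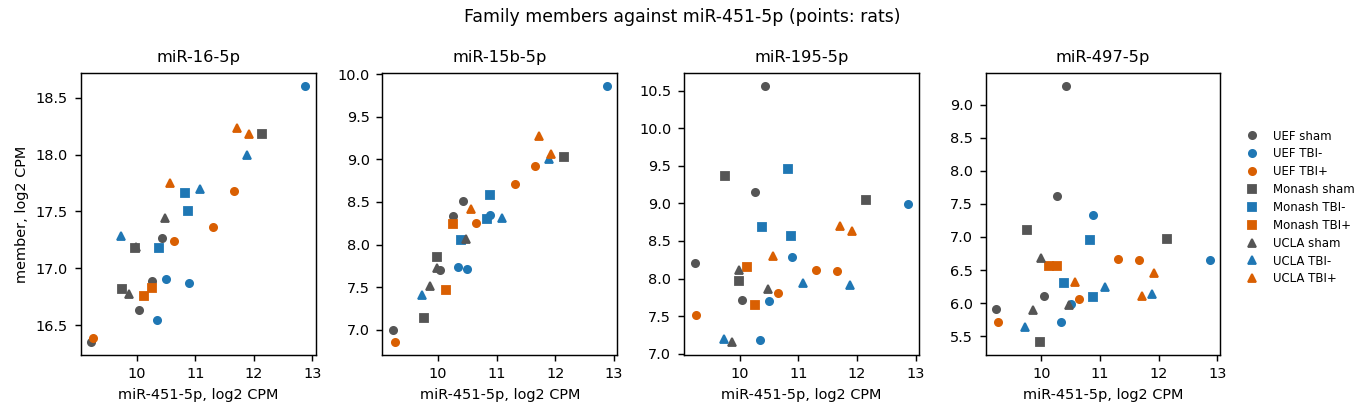
Level of 4 members (y axes, log2 CPM) against that of the red-cell miRNA miR-451-5p (x axis, log2 CPM) in 29 rats. Points are rats, with the shape for the site and the colour for the outcome. miR-16-5p (r = 0.883) and miR-15b-5p (r = 0.947) rise along a line at all 3 sites, whereas miR-195-5p (r = 0.299) and miR-497-5p (r = 0.179) are scattered.

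Among 741 other miRNAs compared over 29 rats, the Spearman correlation with miR-16-5p was highest for miR-93-5p (0.901), miR-17-1-3p (0.856), miR-425-5p (0.855), let-7i-5p (0.849) and miR-142-3p (0.847). For miR-15b-5p the nearest were miR-17-1-3p (0.927), miR-451-5p (0.923), miR-185-5p (0.909), miR-186-5p (0.883) and miR-146b-5p (0.880). Thus miR-17-1-3p was in both lists. The red-cell marker miR-451-5p was in that of miR-15b-5p, and the white-cell and platelet marker miR-142-3p in that of miR-16-5p. For miR-16-5p, rho with miR-451-5p was 0.827, below that with miR-142-3p. Over all 741 miRNAs the median rho was -0.14 with miR-16-5p and -0.15 with miR-15b-5p. Correlations of the other members with the white-cell and platelet markers were not tested.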

How the data were processed

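Small RNA from 200 µl of plasma per rat was extracted (miRNeasy), made into libraries with unique molecular identifiers (QIAseq) and sequenced as single 75-base reads. The authors trimmed reads with cutadapt, aligned them to Rnor_6.0 with bowtie and annotated miRNAs from miRBase; the deposited values are counts per miRNA and rat, and whether reads with the same molecular identifier were merged is not given in the sources used here. Values are relative to the miRNA counts of each library, so total miRNA per volume of plasma was not measured. The replicates are separate rats. Groups came from the labels.

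Counts were tested with edgeR 4.0.16 in R 4.3.3 (quasi-likelihood F test, TMM factors, Benjamini-Hochberg adjustment over the 751 miRNAs tested, threshold 0.05). The count filter (minimum 10, set on the design with site) and default dispersions were used. The filter was first run by outcome alone and then changed. Outcome and site were additive, or crossed for effects within sites. Levels are TMM-scaled CPM, on the log2 scale with a prior count of 2. Shares, ratios (0.5 counts added to each arm) and correlations were tested by exact or 100000-draw two-sided permutations. For shares and ratios, tests of TBI against sham over all sites did not account for site. Those between sites did not account for outcome. DESeq2 1.42.0, other scalings, filters and model terms, and leaving out rats were alternatives. In simulated data 82% of 200 changes of 2-fold were recovered for TBI against sham (744 miRNAs) and 70.5% for UEF against UCLA (742 miRNAs). In the data only 1.2% and 9.32% of the 751 miRNAs were called in these comparisons, and the simulations set no rat apart. The percentages recovered may thus be higher than the tests above would reach.

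Every member was named, together with the relatives and markers listed, and the 5 miRNAs nearest in rank correlation to miR-16-5p and miR-15b-5p. Members and lists were chosen with earlier results of these data known. The sequences come from RefSeq GRCr8. Depth ranged from 1162307 to 5223469 counts per rat.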

Additional observations from a re-analysis of the deposited data

Results flagged for a closer look

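In groups of 4 to 10 rats, a lowest or highest rat was marked when it lay far from the rest by Dixon's test. For normal values chance does so in about 1 in 20 groups. Of 96 groups of member levels, shares and ratios of miR-16-5p to miR-15b-5p, 21 were marked, and several share a rat. As the levels were CPM without logs and the groups overlap, the 21 cannot be set against that rate. UEF TBI- 2 was far above the others among TBI- rats and among UEF TBI- rats with 425.7 CPM of miR-15a-5p, 327.6 CPM of miR-15b-3p and 929.3 CPM of miR-15b-5p, and among UEF TBI- rats with 608.3 CPM of miR-16-3p and 398112 CPM of miR-16-5p. This rat also had the highest log2 ratio of miR-451-5p to miR-23a-3p, -0.87. Monash sham 2 was far above the other sham rats with 210.6 CPM of miR-15b-3p (also among Monash rats), 438.7 CPM of miR-16-3p and 297219 CPM of miR-16-5p, and its ratio of miR-451-5p to miR-23a-3p, -1.33, was the highest of the sham rats.

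UEF sham 3 was far above the other sham rats with 199.3 CPM of miR-195-3p, 1510 CPM of miR-195-5p and 620.9 CPM of miR-497-5p on the TMM-scaled levels. As a plain share of counts its miR-195-3p (0.00664%) was below that of UCLA sham 3 (0.0144%) and its miR-195-5p (0.0503%) below that of Monash sham 3 (0.0696%), whereas its miR-497-5p (0.0207%) was the highest of the sham rats. Its family share of counts, 5.35%, was far below those of the other UEF sham rats, the next being 9.93%. UEF TBI+ 3 had a share of 23.1%, far above the other UEF TBI+ rats. UCLA TBI+ 1 had 273.7 CPM of miR-15a-5p, the highest at UCLA. For miR-497-3p, Monash TBI+ 2 had 94.3 CPM, far above the TBI+ rats and the Monash rats, and UEF TBI- 3 had the marked value among UEF TBI- rats, 21.5 CPM. The part of red-cell or liver RNA in these levels was not tested.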

How the results depend on the processing

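Of 1732 recomputed values for 66 results, 1559 kept direction and side of the threshold, and the causes of the changes were not tested. Members past the threshold numbered 2 over the 3 sites and 2 for UEF against UCLA with at least 100 counts in every rat. They numbered 1 for UEF against Monash by DESeq2, of 109 miRNAs in all. For TBI against sham at UEF they numbered 3 by DESeq2 (of 51 miRNAs in all) and 0 with the hemolysis ratio, the replicate block or the filter by outcome alone. With plain library totals they numbered 2, miR-16-5p (0.92, adjusted p = 0.00892) and miR-16-3p (0.94, adjusted p = 0.0174), both higher in TBI rats. The number of all miRNAs past the threshold is given here for DESeq2 alone. Leaving out each rat gave 0 to 2 over the 3 sites, 0 to 2 for UEF against UCLA and 0 to 3 for TBI at UEF. The 2 in the first pair of counts came without UEF TBI- 2, and the 0 at UEF also without UEF sham 3. With the replicate block, miR-497-5p at UEF had a log2 fold change of -1.16 (edgeR, adjusted p = 0.175). The replicate numbers showed no pairing of the rats. Of same-number pairs, 21 of 103 correlated above 0.1, against 75 of 269 other pairs, and 3 of 29 rats correlated best with their own number. The alternatives at UEF, those for shares within sites, plain library totals, the filter by outcome alone and robust dispersions (1 member called at UEF, miR-497-5p, adjusted p = 0.0341) were chosen after seeing the data. For TBI against sham, the hemolysis ratio in the model turned the log2 fold changes of miR-15a-5p (-0.11), miR-15b-3p (-0.23), miR-15b-5p (-0.094), miR-16-3p (-0.037), miR-16-5p (-0.088) and miR-497-3p (0.037). Without the UEF rats those of miR-15a-3p (-0.25), miR-195-5p (0.064) and miR-497-3p (0.059) turned. miR-497-3p also turned with no site term (0.017) and without the UCLA rats (0.28), and ran from -0.37 to 0.13 over single rats left out. The share difference of TBI and sham was 2.59 points by medians, 1.73 without miR-122-5p and 2.76 to 4.64 over single rats left out. Within sites it ran from 6.69 to 8.83 at UEF, from -3.72 to 1.26 at Monash and from 1.47 to 3.56 at UCLA, with the sign at Monash turning without Monash sham 2. The call at UEF was gained without UEF TBI- 2, UEF TBI- 4 or UEF TBI+ 3 (exact permutation test, adjusted p = 0.00909 for each), and that at UCLA without UCLA TBI- 3 (exact, adjusted p = 0.0333). Without miR-122-5p the share difference of UEF and UCLA was -3.59 points and that of Monash and UCLA -2.44, and the latter was -4.87 by medians and -4.31 to -2.89 over single rats left out, which ended its call in 10 of 17 cases. The ratio of miR-16-5p to miR-15b-5p ran from -0.37 to -0.21 (UEF minus Monash) and from -0.47 to -0.34 (UEF minus UCLA). Among arm ratios, the miR-15a difference of TBI and sham was 0.43 by medians and 0.057 with 5 counts added to each arm, and that of Monash and UCLA was 0.094 by medians. For UEF minus UCLA, miR-15b was 0.34 by medians and 0.35 with 5 counts added, and miR-16 was 0.092 with 5 counts added. The miR-195 difference of TBI and sham was -0.17 by medians. Over single rats left out, arm ratios ran as follows for TBI minus sham: miR-16 -0.034 to 0.0086, miR-195 -0.10 to 0.12 and miR-497 -0.39 to 0.13. For UEF minus UCLA they ran from 0.31 to 0.41 (miR-15b), 0.080 to 0.11 (miR-16) and 0.80 to 1.18 (miR-497). For UEF minus Monash they ran from 0.080 to 0.12 (miR-16) and -0.63 to -0.44 (miR-195), and for Monash minus UCLA from -0.026 to 0.015 (miR-16) and 0.62 to 0.88 (miR-195). Without TMM factors, Pearson r with miR-451-5p was -0.41 for miR-195-3p, -0.28 for miR-195-5p and -0.39 for miR-497-5p. Depth limits miR-15a-3p most.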
